A study of Mus musculus with 15 samples.

Results

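A set of 8 genes for factors of spermatogonial commitment and differentiation was followed through the loss and return of a stem cell growth factor. They are Neurog3, Sohlh1, Sohlh2, Dmrt1, Lmo1, Kit, Stra8 and Upp1, and they were chosen by symbol, as every probe set that the array's own annotation gives to one of these 8 names. This gave 10 of the 45101 probe sets on the array. Neurog3 and Kit had 2 probe sets each and the other members 1. All 8 genes were among the 13083 genes bright enough to be tested, and 9 of the 10 probe sets passed that filter. The filter uses the mean over all 15 arrays, so a dim gene can pass through the group where it is high. The limit was a signal of about 30.5, and Stra8 lay nearest to it, with a mean of 23.7 ± 11.0 (SD, n = 3) in withdrawal and 60.7 ± 18.3 (SD, n = 3) in its highest group.

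RNA came from cultures enriched in mouse spermatogonial stem cells, from which sperm production is renewed, set up from male C57BL/6 pups aged 6 days. The serum-free medium contained GDNF, a growth factor of the glial cell line-derived family, soluble GFRalpha1, its co-receptor, and bFGF, and the labels name no genetic change in any group. Maintained cultures always had these factors, withdrawal cultures spent 18 h without GDNF and GFRalpha1, and replacement cultures had the pair returned after such a withdrawal for 2, 4 or 8 h. The 5 groups had 3 arrays each. Per the labels bFGF was in the medium of the maintained cultures, and only GDNF and GFRalpha1 are named as removed. No group stayed without the factors past 18 h or was handled alike without receiving them, so their return and the handling or extra time that went with it cannot be told apart. Nothing in the labels says whether replicates came from separate cultures, so p-values measure only the spread between these arrays, which may be technical. All values are MAS5 signal, the arbitrary brightness unit of this array type, and levels of different probe sets are not compared with each other.

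In the testis a small pool of stem cells divides either to renew itself or to form progenitors, and retinoic acid then drives the progenitors into differentiating divisions that end in meiosis. GDNF, acting through the receptor tyrosine kinase RET and GFRalpha1, favours renewal. NEUROG3, SOHLH1 and SOHLH2 are basic helix-loop-helix (bHLH) transcription factors that bind E-box DNA, usually with a partner, and mark or drive the step out of the stem cell state. DMRT1 is a DM-domain transcription factor that restrains meiotic entry in spermatogonia. LMO1 is a LIM-only protein that bridges transcription factors and does not bind DNA itself. KIT is the receptor for stem cell factor and marks differentiating spermatogonia, STRA8 is induced by retinoic acid and is needed for meiosis, and UPP1 is uridine phosphorylase, which splits uridine into uracil and ribose 1-phosphate.

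The germ cell label held against its markers. Ddx4, a germ cell RNA helicase, read 830.5 to 1410.1 over the 15 arrays, and all 10 germ cell markers present on the array passed the filter. None of the 10 was called on withdrawal by limma, where 8.04% of all genes were called. With 10 genes such a count cannot be told apart from that share. Under an unadjusted p of 0.05 there were 2, and the share of all genes at that looser threshold was not computed. Their summed signal was 17031.7 to 20115.3 in maintained and 13197.7 to 18790.7 in withdrawal cultures. Other cells were present too: the summed signal of 17 fibroblast and feeder genes was 14233.2 to 18005.4 in maintained, 12339.6 to 19756.8 in withdrawal, and 8261.7 to 14062.3, 23190.5 to 27354.7 and 22159.1 to 26038.7 at 2, 4 and 8 h of replacement. The part of such cells in any result below was not tested, except where a value is given. In RNA from a whole culture, fewer cells of a type and less RNA per cell cannot be told apart. Withdrawal replicate 3 stood apart in RNA quality, with a 3' over 5' ratio of the actin control of 2.77, against 1.10 to 1.75 on the other arrays.

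On withdrawal 5 of the 8 genes were called higher, Neurog3, Sohlh1, Dmrt1, Lmo1 and Upp1, and none was called lower. A gene is called here at a Benjamini-Hochberg adjusted p under 0.05 in limma, over all 13083 genes, and 8.04% of all genes were called in this comparison, 4.21% as higher. Of all these calls, 52.4% were higher, and 29.5% when arrays were shifted to 1 common median. The median log2 difference of the 8 members was 0.71, beside 0.06 over all genes tested. Leaving out withdrawal replicate 3 kept the call of all 5 genes. In each of the 5 the withdrawal arrays all lay above the maintained arrays, and in 1 other member, Stra8, all lay below. Over all genes, 26.8% had groups that did not overlap in either direction. The separation of the 5 comes from the same arrays as their calls and adds no support to them. Sohlh2, Kit and Stra8 did not pass the test.

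**Figure D1:**
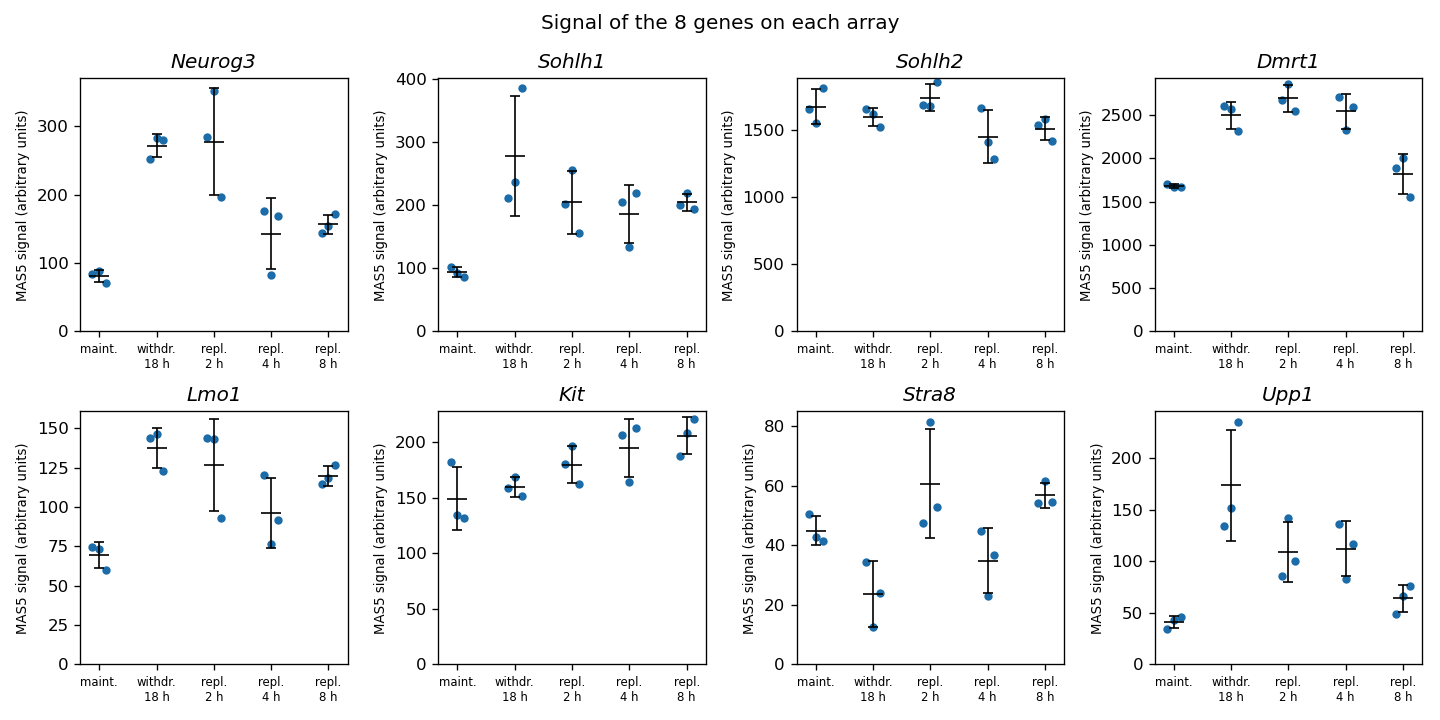
MAS5 signal (arbitrary units, each panel with its own axis from 0) of the probe set used for each of the 8 genes, by group. Each point is 1 array, and lines show the mean and SD of 3 arrays; Neurog3, Sohlh1, Dmrt1, Lmo1 and Upp1 lie higher in withdrawal than in maintained cultures, and Sohlh2 stays between 1282.7 and 1854.4 throughout.

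Neurog3 is the member most used as a mark of progenitors that have begun to commit. Its signal was 83.3, 88.5 and 70.7 in the maintained cultures and 252, 282.8 and 280 after withdrawal. The groups were wide apart, and Neurog3 rose by a log2 difference of 1.57 (SE 0.23, 95% interval 1.10 to 2.05, adjusted p = 0.000489), a 2.98-fold change on the log2(signal + 16) scale used for all folds here. After 2 h of replacement the arrays read 285, 352.2 and 196.3. The spread had grown but the mean had not moved: the difference from withdrawal was -0.0036 (95% interval -0.48 to 0.47, adjusted p = 0.998).

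At 4 h of replacement Neurog3 read 176, 82.7 and 169.3, and every array lay below the withdrawal arrays. It fell by 0.92 on the log2 scale (SE 0.23, 1.89-fold, adjusted p = 0.0403). It was the only member called there, where 2.64% of all genes were called and 0.91% were called lower. That call lay near the threshold and was lost without any 1 of the withdrawal replicates 1, 2 or 3 or the 4 h replicates 2 or 3. The differences were then -0.97, -0.89, -0.90, -0.61 and -1.06, with adjusted p from 0.0659 to 0.182. Of these, only the fit without 4 h replicate 2 gave a clearly smaller fall. The call was also lost with no filter on dim probe sets (adjusted p = 0.0677). At 8 h the arrays read 144.3, 153.7 and 171.9, still below all withdrawal arrays and above all maintained arrays. Neither difference was called: it was -0.74 from withdrawal (95% interval -1.21 to -0.26, adjusted p = 0.101) and 0.84 from maintained (0.36 to 1.31, adjusted p = 0.0895). With array weights both were called (-0.70, adjusted p = 0.0262, and 0.90, adjusted p = 0.0135). With only the groups compared both were called as well (adjusted p = 0.0461 and 0.0317). From low to high, the mean log2 signals of the groups, used for every such order here, ran from maintained through 4 h, 8 h and 2 h to withdrawal, and no 2 neighbours in that order differed past the threshold. In a comparison added after the data were seen, Neurog3 was lower at 4 h than at 2 h (-0.91, adjusted p = 0.0470). That call was lost in 4 of 6 fits with 1 array left out and in 7 of 12 other settings.

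The second Neurog3 probe set was too dim to be tested, and it is described by its signal alone. It read 1.7, 12.4 and 4.1 in maintained cultures and 43.7, 46.8 and 48.8 after withdrawal, so these groups did not overlap either. After 2 h it read 63.7, 90 and 20.4, after 4 h 39.7, 4.1 and 6, and after 8 h 29.8, 39.6 and 45.4. The order of the group means was the same from the lowest to the 8 h group as for the brighter probe set, but here 2 h rather than withdrawal was highest. Over the 15 arrays the log2 values of both probe sets had a Pearson r of 0.875, given as a description, since they share the same arrays.

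**Figure D2:**
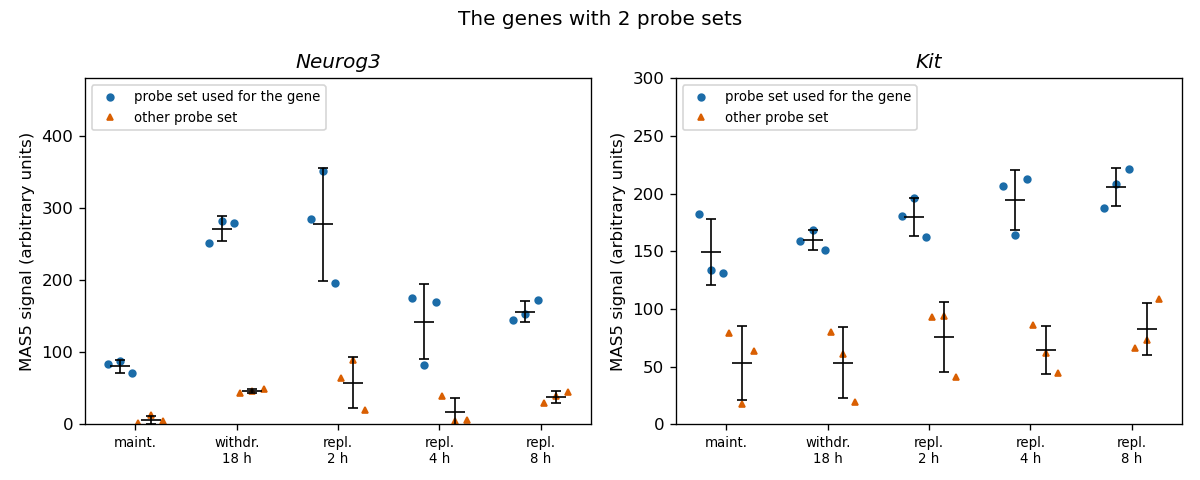
MAS5 signal (arbitrary units, axis from 0) of both probe sets of Neurog3 and of Kit, by group, with 1 point per array and the mean and SD of 3 arrays. Both Neurog3 probe sets are lowest in maintained cultures; the dimmer Kit probe set varies from 17.7 to 79.5 among the maintained arrays alone.

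Sohlh1 and Sohlh2 are germ cell bHLH factors that work as a pair, and Sohlh1 was called on withdrawal while Sohlh2 was not. Sohlh1 read 102.5, 92.8 and 86.7 in maintained cultures and 211.3, 235.6 and 385.3 after withdrawal. It rose by 1.37 (SE 0.22, 2.59-fold, adjusted p = 0.000969), and all withdrawal arrays lay above all maintained arrays. The highest value came from withdrawal replicate 3, the array with the raised 3' over 5' ratio, and without it the difference was 1.12 (adjusted p = 0.00389).

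Sohlh1 stayed above its maintained range at every replacement time. It read 202.2, 255.4 and 155.5 at 2 h, 204.3, 134.1 and 219.2 at 4 h, and 199.2, 219.6 and 193.3 at 8 h. All 9 replacement arrays lay above the 3 maintained arrays, while no replacement time was called against withdrawal (differences -0.39, -0.52 and -0.37, adjusted p from 0.196 to 0.661). At 8 h Sohlh1 was the only one of the 8 genes called against maintained cultures, higher by 1.00 (SE 0.22, 95% interval 0.54 to 1.46, 2.00-fold, adjusted p = 0.0495), where 0.482% of all genes were called and 0.275% were called higher. The adjusted p lies at the threshold. The call was lost under 7 of 12 other settings and without maintained replicates 2 or 3 or any 8 h replicate, with differences from 0.95 to 1.04 and adjusted p from 0.112 to 0.183 in those left-out fits. In order, maintained was lowest, then 4 h, 2 h, 8 h and withdrawal, with no called step between neighbours.

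Sohlh2 read 1657.2, 1553.9 and 1812.1 in maintained cultures and 1654.5, 1619.5 and 1523.7 after withdrawal, with overlapping groups. The difference was -0.06 (95% interval -0.32 to 0.20, adjusted p = 0.804), and with quantile normalization it turned to 0.07. After 2 h it read 1687.8, 1679.6 and 1854.4, after 4 h 1663.3, 1408.4 and 1282.7, and after 8 h 1535.8, 1578.6 and 1418.7. From low to high the order was 4 h, 8 h, withdrawal, maintained and 2 h, in small steps. No comparison called Sohlh2, and the test over all 5 groups at once did not either (adjusted p = 0.432). The 95% interval on withdrawal leaves out a change as large as that of Sohlh1.

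E-boxes, the DNA letters CANNTG that bHLH factors recognise, were looked for in the 250 bases before the start site of each gene, on both strands. RefSeq promoters of build GRCm38.p6 were matched by symbol for 7 of the 8 members, all but Dmrt1, and the window of the start site farthest upstream was used. The promoters of 4 genes that rose together on withdrawal are shown with E-boxes in capitals, because the list holds 3 bHLH factors. Neurog3 lies at chr10:62132840-62133089 on the plus strand, Sohlh1 at chr2:25847249-25847498 on the minus strand, Lmo1 at chr7:109175208-109175457 on the minus strand and Upp1 at chr11:9117758-9118007 on the plus strand; all are upstream, non-coding bases printed 5' to 3' along the gene.
Neurog3: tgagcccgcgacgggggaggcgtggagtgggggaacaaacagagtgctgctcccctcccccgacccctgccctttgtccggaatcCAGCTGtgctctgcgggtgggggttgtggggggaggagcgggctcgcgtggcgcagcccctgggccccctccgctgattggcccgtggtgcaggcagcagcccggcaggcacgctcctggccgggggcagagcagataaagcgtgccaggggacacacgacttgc
Sohlh1: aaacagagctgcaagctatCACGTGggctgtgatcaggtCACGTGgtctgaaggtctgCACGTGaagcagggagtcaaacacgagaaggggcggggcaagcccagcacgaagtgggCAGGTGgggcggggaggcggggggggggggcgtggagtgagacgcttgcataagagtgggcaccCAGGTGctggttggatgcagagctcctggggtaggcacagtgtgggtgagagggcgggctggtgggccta
Lmo1: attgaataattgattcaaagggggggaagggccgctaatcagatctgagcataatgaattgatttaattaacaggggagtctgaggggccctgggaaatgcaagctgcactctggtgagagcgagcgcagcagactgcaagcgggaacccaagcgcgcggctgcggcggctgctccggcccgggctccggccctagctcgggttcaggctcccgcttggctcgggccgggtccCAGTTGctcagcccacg
Upp1: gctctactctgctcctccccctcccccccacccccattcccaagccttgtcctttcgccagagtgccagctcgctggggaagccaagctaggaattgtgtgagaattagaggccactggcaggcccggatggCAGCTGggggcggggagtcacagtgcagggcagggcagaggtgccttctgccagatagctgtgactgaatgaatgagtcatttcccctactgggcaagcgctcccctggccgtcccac
Sohlh1 had 5 E-boxes. Of these, 3 were CACGTG, at 231, 211 and 192 bases before the start site, and 2 were CAGGTG, at 134 and 70 bases. Of 27025 mouse promoters cut to the same length, 66.05% held at least 1 CANNTG and 12.09% held 3 or more. For CACGTG, which is 1 form of CANNTG, the shares were 6.04% and 0.06%, the latter being 16 promoters. Neurog3 and Upp1 each held 1 E-box, CAGCTG, at 165 and 118 bases before the start, a form found in 12.74% of all promoters. Lmo1 held CAGTTG at 17 bases. Among the genes that were not called, Sohlh2 held 1 E-box and Kit and Stra8 held none in this window. Upp1 had 3 promoter windows and Lmo1 and Kit had 2 each, and their other windows were not searched. A match is a description of letters, and binding was not measured here.

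Dmrt1 was bright in every group and rose on withdrawal. It read 1701.6, 1666.5 and 1674.3 in maintained cultures and 2600.3, 2569.8 and 2321.4 after withdrawal. The groups were well separated, and Dmrt1 rose by 0.56 (SE 0.12, 1.48-fold, adjusted p = 0.0104). This call was lost when arrays were shifted to 1 common median (0.47, adjusted p = 0.0562) and when only the groups compared were fitted (adjusted p = 0.0947).

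In the first 4 h of replacement Dmrt1 was not called against withdrawal. The arrays read 2675.3, 2860 and 2547.8 at 2 h and 2707.8, 2324.7 and 2596 at 4 h, within or above the withdrawal range, and the differences from withdrawal were 0.11 and 0.02 (adjusted p = 0.847 and 0.933). At 8 h they read 1894.7, 2000.4 and 1559.3. All 3 lay below every withdrawal, 2 h and 4 h array, and they straddled the maintained arrays. Against 2 h, in a comparison added after the data were seen, Dmrt1 fell by 0.57 (SE 0.12, adjusted p = 0.0253), where 1.85% of all genes were called and 0.375% were called lower. That call was lost without any 1 of the 6 arrays, with differences from -0.64 to -0.46 and adjusted p from 0.0572 to 0.144. Against withdrawal the 8 h difference was -0.46 (95% interval -0.72 to -0.20, adjusted p = 0.0617), and against maintained it was 0.10 (95% interval -0.16 to 0.37, adjusted p = 0.687), turning to -0.04 with arrays shifted to 1 median. The difference from withdrawal was called without withdrawal replicate 3 (-0.51, adjusted p = 0.0394) and with array weights (-0.50, adjusted p = 0.00302). In the other left-out fits it was not called, with adjusted p up to 0.272. Its order from low to high was maintained, 8 h, withdrawal, 4 h and 2 h, with no neighbouring step called.

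DMRT1 is also made by Sertoli cells, the somatic nurse cells of the testis. The summed signal of 12 Sertoli cell genes on the array was 781.8 to 922.8 in maintained, 915.8 to 1146.3 in withdrawal, 702.9 to 903.2 at 2 h, 1095.1 to 1160.5 at 4 h and 1153.1 to 1224.2 at 8 h. The 2 h arrays overlapped the maintained arrays in this sum, and the 4 h and 8 h arrays lay above them. None of the 10 tested was called on withdrawal, where 8.04% of all genes were called. Under an unadjusted p of 0.05 in limma there were 2, and the share of all genes at that looser threshold was not computed. Sox9, Gata4, Wt1 and Amh, the defining ones, did not exceed 79.6 on any array or probe set. None of these 4 was at 0. The part of Sertoli cells in the Dmrt1 values was not tested.

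Lmo1, the LIM-only bridging protein, rose on withdrawal. Its signal was 74.8, 73.4 and 60 in maintained cultures and 143.8, 146.3 and 122.9 after withdrawal. All withdrawal arrays were higher, and Lmo1 rose by 0.85 (SE 0.18, 95% interval 0.47 to 1.23, 1.80-fold, adjusted p = 0.00838). After the return of the factors it read 144.1, 143.3 and 93.1 at 2 h, 120.2, 76.7 and 91.8 at 4 h, and 114.6, 118.3 and 126.5 at 8 h. The 4 h arrays all lay below the withdrawal arrays and the 8 h arrays did not. Neither difference was called (-0.47, adjusted p = 0.166, and -0.18, adjusted p = 0.705). At 8 h Lmo1 remained 0.67 above maintained cultures (95% interval 0.29 to 1.05, adjusted p = 0.0895), with all arrays higher. With array weights this difference was called (0.74, adjusted p = 0.0101), as was that of 4 h from withdrawal (-0.58, adjusted p = 0.0261). The group means ran in the same order as those of Neurog3, from maintained through 4 h, 8 h and 2 h to withdrawal, and again no neighbouring step was called.

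Kit, the receptor on differentiating spermatogonia, was called in no comparison of the main fit. It read 182.3, 134.1 and 131.5 in maintained cultures and 159.1, 168.6 and 151.2 after withdrawal, with the withdrawal arrays inside the maintained range. The difference was 0.10 (95% interval -0.21 to 0.41, adjusted p = 0.737). After 2 h it read 180.5, 196.4 and 162.7, after 4 h 206.7, 164.6 and 212.5, and after 8 h 188, 208.4 and 221.2. The 8 h arrays lay above every maintained and withdrawal array, but the differences were not called: the 8 h difference was 0.34 from withdrawal (95% interval 0.02 to 0.65, adjusted p = 0.288) and 0.44 from maintained (0.12 to 0.75, adjusted p = 0.164). With array weights the difference from maintained was called (0.48, adjusted p = 0.0292). The group means ran from maintained through withdrawal, 2 h and 4 h to 8 h in small steps, none of them called.

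The dimmer Kit probe set was called nowhere. It read 79.5, 17.7 and 63.7 in maintained and 79.9, 61.1 and 19.8 in withdrawal cultures. At 2 h it read 93.1, 93.9 and 41.2, at 4 h 86.6, 62.1 and 44.7, and at 8 h 66.2, 73.5 and 108.8, and all 5 groups overlapped. Mast cells and Leydig cells also make KIT. The summed signal of 13 mast cell genes was 1664.3 to 2147.7 in maintained, 2202.3 to 2914.8 in withdrawal, 2499.4 to 3733.9 at 2 h, 3987.5 to 4504.5 at 4 h and 3756.6 to 5722.1 at 8 h. The defining ones were well above 0: Cpa3, a mast cell protease, read 473.5 to 1439.2 and Cma1, mast cell chymase, 300.7 to 1099.5. Of the 10 tested, 4 were called higher at 8 h than in maintained cultures, where 0.275% of all genes were called higher. Among the 4 was Cma1, by 1.48 (adjusted p = 0.00142). The sum of 8 Leydig and peritubular genes was 676.3 to 805.7 in maintained and 1015.5 to 1278.8 at 8 h. The part of these cells in the Kit values was not tested.

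Stra8, the retinoic acid-induced gatekeeper of meiosis, was dim, and its arrays lay lower, not higher, after withdrawal. It read 50.6, 42.9 and 41.5 in maintained cultures and 34.5, 12.5 and 24 after withdrawal, every array lower. The difference of -0.66 was not called (95% interval -1.18 to -0.13, adjusted p = 0.115). After 2 h it read 47.7, 81.6 and 52.8, above all withdrawal arrays and overlapping the maintained ones. That difference was 0.96 (95% interval 0.44 to 1.49), with an unadjusted p of 0.00121 in limma and an adjusted p of 0.265, where only 0.115% of all genes were called. At 4 h it read 44.7, 23 and 36.9 and at 8 h 54.3, 61.7 and 54.6. The 4 h arrays overlapped the withdrawal arrays, and the 8 h arrays lay above both withdrawal and maintained arrays (0.91 from withdrawal, adjusted p = 0.0630, and 0.26 from maintained, adjusted p = 0.605). The 8 h difference from withdrawal was called with no variance trend, with array weights and without withdrawal replicate 1 (adjusted p from 0.0375 to 0.0483). In the other left-out fits it was not called, with adjusted p up to 0.185. The SD was 46.5% of the mean in withdrawal, and the test over all 5 groups gave an adjusted p of 0.0694. From low to high Stra8 ran from withdrawal through 4 h, maintained and 8 h to 2 h, with no neighbouring step called.

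The Stra8 promoter is shown as the counterpart of those above, at chr6:34920698-34920947 on the plus strand. Capitals mark AGGTCA, a motif of nuclear receptors such as the retinoic acid receptors, and ACANTGT, the core letters of DM-domain sites.
Stra8: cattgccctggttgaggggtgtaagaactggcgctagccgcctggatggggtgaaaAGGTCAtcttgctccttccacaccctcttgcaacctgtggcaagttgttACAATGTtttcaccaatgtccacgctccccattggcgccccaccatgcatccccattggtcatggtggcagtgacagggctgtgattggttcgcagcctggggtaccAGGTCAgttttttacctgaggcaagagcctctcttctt
AGGTCA occurred 2 times, 194 and 38 bases before the start site. Among all promoters 13.8% held at least 1 and 1.32% held 2 or more. The letters ACAATGT lay at 145 bases, and 6.53% of promoters held ACANTGT. Sohlh1 held ACAGTGT at 34 bases and 1 AGGTCA at 215 bases, the latter overlapping the CACGTG at 211. No other member of the 7 held either motif.

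Upp1, the uridine phosphorylase gene, rose on withdrawal. It read 34.6, 43.1 and 46.1 in maintained cultures and 134.2, 151.1 and 235 after withdrawal, with no overlap. It rose by 1.69 (SE 0.23, 95% interval 1.21 to 2.18, 3.24-fold, adjusted p = 0.000305). Withdrawal replicate 3 was again the highest array, and without it the difference was 1.47 (adjusted p = 0.00152). Replacement brought 85.5, 141.5 and 99.7 at 2 h and 136.4, 83.1 and 117 at 4 h, which overlapped withdrawal and were not called against it (-0.59 and -0.55, adjusted p = 0.541 and 0.197).

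At 8 h Upp1 read 49.2, 66.4 and 75.9, below every withdrawal array and just above every maintained array. It fell by 1.22 on the log2 scale from withdrawal (SE 0.23, 2.34-fold, adjusted p = 0.00955). Upp1 was the only member called in that comparison, where 2.39% of all genes were called and 1.09% were called lower. Without 8 h replicate 1 the difference was -1.09 and the call was lost (adjusted p = 0.0536). Against maintained the 8 h difference was 0.47 (95% interval -0.01 to 0.95, adjusted p = 0.303). The order ran from maintained through 8 h, 2 h and 4 h to withdrawal with no called step between neighbours.

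**Figure D3:**
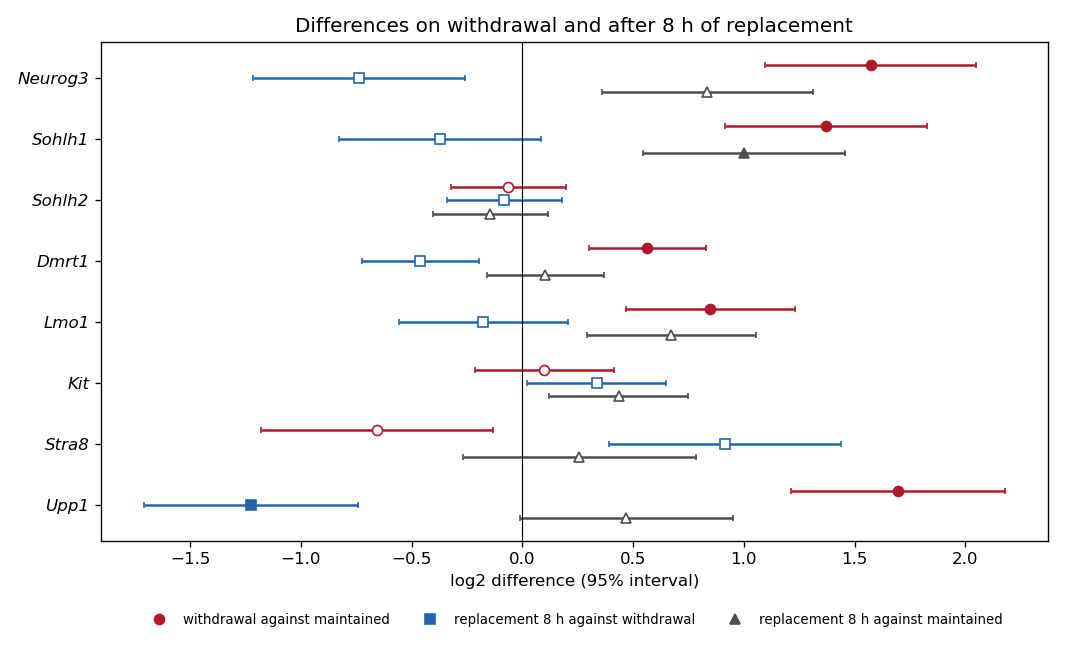
Log2 difference with its 95% interval for each gene on withdrawal against maintained, at 8 h of replacement against withdrawal and at 8 h against maintained cultures. Filled points passed an adjusted p under 0.05: 5 genes on withdrawal, Upp1 at 8 h against withdrawal and Sohlh1 at 8 h against maintained.

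Against withdrawal, 0.115%, 2.64% and 2.39% of all genes were called at 2, 4 and 8 h of replacement. At 2 h none of the 8 genes was called against withdrawal in limma, with 2 members, Stra8 and Upp1, under an unadjusted p of 0.05. At 4 h and at 8 h 1 each was called, Neurog3 and Upp1, with 4 and 5 members under that unadjusted p. The share of all genes under that unadjusted p was not computed, and the shares above are at the stricter adjusted threshold. The unadjusted counts therefore cannot be read against them. The members' median differences from withdrawal were 0.05, -0.31 and -0.27 at 2, 4 and 8 h, beside -0.04, -0.05 and 0.01 over all genes. These 3 comparisons and the one on withdrawal share the withdrawal arrays. The summed germ cell markers read 17640.5 to 19047.9, 17808.6 to 19782.1 and 15900.6 to 16346.6 at these times. Of 15 tested fibroblast and feeder genes 4 were called higher at 4 h and 5 at 8 h than in withdrawal, among them Col3a1, a collagen gene, by 1.19 and 1.08. The part of these cells in the members' values was not tested. At 8 h 6 of the 8 genes had every array above every maintained array, where 15.8% of all genes did.

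The 2 h and 4 h cultures were also set against maintained cultures, in comparisons added after the data were seen. At 2 h the same 5 genes that rose on withdrawal were higher than in maintained cultures, where 2.43% of all genes were called and 1.14% were called higher: Neurog3 by 1.57 (adjusted p = 0.00122), Sohlh1 by 0.98 (0.0223), Dmrt1 by 0.67 (0.00889), Lmo1 by 0.72 (0.0417) and Upp1 by 1.11 (0.0162). Without 2 h replicate 2 only Neurog3 kept its call, the others standing at 0.82, 0.63, 0.63 and 0.93 with adjusted p from 0.0709 to 0.189. Sohlh1 also lost its call without maintained replicates 2 or 3 or 2 h replicate 1, and Lmo1 without any 1 of the maintained replicates or 2 h replicate 1 (adjusted p from 0.0607 to 0.177). Lmo1 lost it in 3 of 12 other settings as well (adjusted p from 0.0752 to 0.0784). At 4 h Dmrt1 (0.59, adjusted p = 0.0302) and Upp1 (1.15, adjusted p = 0.0210) were called higher than in maintained cultures, where 0.955% of all genes were called and 0.566% were called higher. Each lost its call without any maintained replicate or 4 h replicates 1 or 3, at adjusted p from 0.0663 to 0.132 and differences from 0.54 to 1.21. Dmrt1 lost it in 4 of 12 other settings too, quantile normalization, a common median, only the groups compared and every probe set tested (adjusted p from 0.0515 to 0.112). Without 4 h replicate 2, the lowest of its group for Neurog3, Sohlh1, Dmrt1, Lmo1 and Upp1, Neurog3 (0.97, adjusted p = 0.0266) and Sohlh1 (1.05, adjusted p = 0.0367) were called as well.

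The share of each rise that was left is a compact way to see these time courses. It is the log2 difference from maintained cultures at a replacement time divided by that on withdrawal, with a range from leaving out 1 of the 9 arrays in turn. Neurog3 kept 99.8% of its rise at 2 h (88.3 to 113.5), 41.6% at 4 h (30.9 to 61.4) and 53.1% at 8 h (49.1 to 56.4). Dmrt1 kept 119.3% (109.4 to 126.3), 104.4% (95.7 to 115.5) and 18.5% (5.68 to 37.2) at these times. The step from 4 to 8 h was not called (-0.49, adjusted p = 0.187). Sohlh1 stayed between 62.1% and 73.0% at all 3 times, with ranges spanning 53.0 to 89.1.

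Lmo1 kept 85.4% at 2 h, 44.8% at 4 h and 79.3% at 8 h, and its 4 h value ranged from 27.3 to 60.02. Upp1 kept 65.2% at 2 h, 67.6% at 4 h and 27.7% at 8 h, the last with a range of 21.3 to 35.9. At 8 h the left-out ranges of Dmrt1 and Upp1 lay below those of Neurog3, Sohlh1 and Lmo1. These ranges are not confidence intervals and do not separate the genes. The genes were also picked by the rise that each share is divided by. The differences between genes in this share were not tested.

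**Figure D4:**
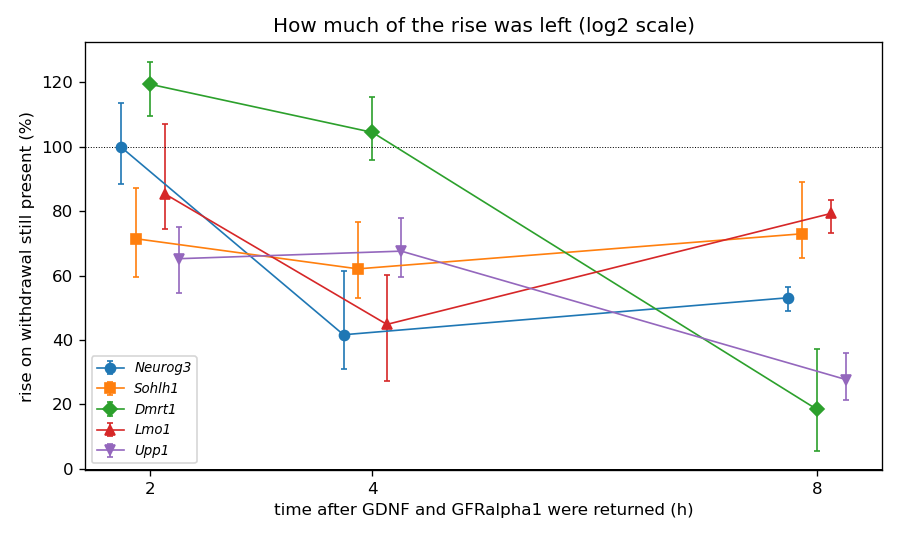
Share of the withdrawal rise (%, log2 scale) still present 2, 4 and 8 h after GDNF and GFRalpha1 were returned, for the 5 genes that rose. Bars span the values with 1 of 9 arrays left out in turn and are not confidence intervals; Dmrt1 is at 104.4% at 4 h and 18.5% at 8 h, while Sohlh1 lies between 62.1% and 73.0%.

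Over all 5 groups at once, the moderated F test called 5 of the 8 genes, Neurog3 (adjusted p = 0.00142), Upp1 (0.00167), Dmrt1 (0.00477), Sohlh1 (0.00738) and Lmo1 (0.0309), against 6.68% of all genes. The count was 4 to 7 over 11 other settings and 4 to 5 with 1 array left out. Pearson's r between pairs of these 5 over the 15 arrays ran from 0.553, for Dmrt1 and Lmo1, to 0.908, for Neurog3 and Lmo1. These values describe arrays that share groups and scaling, and the 5 genes were picked by their rise on the same arrays, so positive values among them follow from that choice. Among tested genes with clone-like symbols left out, Sox3, a transcription factor of progenitor spermatogonia, had the profile most like Neurog3 (r = 0.957). Nfs1 (0.937) and Ogfrl1 (0.922) followed. Symbols left out of these rankings were those such as Rik, Gm or LOC names and any that begin with a letter followed directly by digits. The profiles most like the others were Kcp for Sohlh1 (0.935), Thumpd1 for Sohlh2 (0.909), Spata2 for Dmrt1 (0.934), Gse1 for Lmo1 (0.930), Ctns for Kit (0.869), Ier2 for Stra8 (0.819) and Got2 for Upp1 (0.949). Esr1, the estrogen receptor alpha gene, was next for Upp1 (0.949).

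Genes that work beside the 8 were read from lists, some of which share genes with them. Counts in every list are read beside the 8.04% of all genes called on withdrawal and the 2.39% called at 8 h against withdrawal. In so short a list, a count near that share is no result about the list. Of 20 tested stem cell factors, 9 fell and 2 rose on withdrawal, with a median of -0.53. The log2 differences were -2.57 for Bcl6b (adjusted p = 8.68e-06) and -1.95 for Lhx1 (adjusted p = 3.03e-05), transcription factors of stem cell renewal, and -2.14 for Cxcr4, a chemokine receptor (adjusted p = 3.03e-05). The 2 that rose were Zbtb16 (0.77, adjusted p = 0.0261) and Foxo1 (0.75, adjusted p = 0.00179), so the list did not move as 1. At 8 h 5 of the 20 were called higher than in withdrawal, among them Bcl6b by 2.10, and 1 was called lower.

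Among 9 tested partners and inhibitors of bHLH factors, 2 fell and 1 rose on withdrawal. Id4 (-1.82, adjusted p = 1.56e-05) and Id3 (-0.68, adjusted p = 0.0202) encode inhibitors that bind bHLH partners and keep them off DNA, and Hes5, a bHLH repressor, rose by 1.50 (adjusted p = 0.00281). At 8 h Id4 was 1.03 higher than in withdrawal (adjusted p = 0.00654) and Hes5 1.10 lower (log2 difference -1.10, adjusted p = 0.0399). Hes5 was dim in maintained cultures, at 19.8, 66.3 and 20.7.

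The differentiation list had 24 tested genes, all 8 members included, and 7 rose and 2 fell on withdrawal, with a median of 0.27. Beside the 5 members, Sox3 rose by 1.64 (adjusted p = 0.000302) and Dnmt3a, a DNA methyltransferase, by 0.81 (adjusted p = 0.0222). Ccnd2 and Ccnd3, the cyclins D2 and D3, fell by 0.89 and 0.55 (adjusted p = 0.00656 and 0.0180). At 8 h Dnmt3b was lower than in withdrawal (-0.69, adjusted p = 0.0200) and Ccnd2 higher (0.78, adjusted p = 0.0323). So genes of this list did not all go the same way.

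In the retinoic acid pathway 1 of 15 tested genes rose and 1 fell on withdrawal, where 8.04% of all genes were called. Rara, a retinoic acid receptor, rose by 1.25 (adjusted p = 0.0218), and Rdh11, a retinal reductase, fell by 1.38 (adjusted p = 0.00179). Rara was dim in maintained cultures, at 71, 31.4 and 23. At 8 h Aldh1a1, which makes retinoic acid, was 1.04 higher than in withdrawal (adjusted p = 0.0214). Crabp2, a retinoic acid binding protein, was lower (-0.84, adjusted p = 0.00856). Of 15 meiotic entry genes only Rec8, a meiotic cohesin, rose on withdrawal (1.63, adjusted p = 0.0119). At 8 h Rec8 was lower than in withdrawal (-1.66, adjusted p = 0.0244), as was Smc1b, another meiotic cohesin gene (-0.76, adjusted p = 0.00364). Rec8 was dim, at 16.6, 9.2 and 49.1 in maintained cultures and 10.3, 45.2 and 15.2 at 8 h, beside a filter limit of about 30.5. After withdrawal it read 96.5, 62.9 and 162.3, highest on replicate 3, the array with the raised 3' over 5' ratio.

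For partners of DMRT1, LMO1, KIT and UPP1 the counts on withdrawal are read beside the 8.04% of all genes called. Of 10 tested LIM-domain partners, Lmo1 itself was the only call on withdrawal, and Upp1 was the only call among 14 genes of pyrimidine nucleoside metabolism. Among 4 tested DM-domain genes Dmrt1 rose and Dmrt3 fell (-0.48, adjusted p = 0.0340). Of 16 KIT signalling genes 2 fell, Pik3cd, a subunit of the lipid kinase PI3K (-0.62, adjusted p = 0.0236), and Sh2b3, an adaptor that dampens KIT (-0.69, adjusted p = 0.0462). Kitl, the KIT ligand, was not called on withdrawal (0.15, adjusted p = 0.714) or at 8 h against maintained (0.80, adjusted p = 0.0842).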

How the data were processed

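RNA was measured on 15 single-colour Affymetrix arrays, and every array was used. Per the submitters' processing notes the authors computed the values with MAS5, so the deposited values are signal, an intensity on a linear scale. The sources used here do not give its version, the scaling target or the chip. Signals were transformed as log2(signal + 16), which shrinks differences of dim genes. After 64 control probe sets were set aside, the dimmest 40% of probe sets were left out, and a gene was taken as its probe set with the highest mean log2 value. All 5 groups entered 1 fit in limma 3.58.1 under R 4.3.3 (lmFit, and eBayes with a variance trend), with two-sided tests and Benjamini-Hochberg adjustment over 13083 genes. Values printed in full are signals of single arrays, and 3 arrays a group limit the precision: an exact test of 3 against 3 cannot go below 0.1, and the median SE of a log2 difference was 0.19. Scripts were tested on simulated data.

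The 8 genes, the lists and the comparisons were chosen with earlier results of these data known. Named genes are all members, the up to 3 called genes of each list with the largest change on withdrawal, and the most alike profiles by Pearson's r. Other genes named, such as Dnmt3a, Ccnd2, Ccnd3, Kitl, cell markers and those at 4 or 8 h, were chosen after their values were seen. Replicate numbers were not used to pair the groups in the main fit. Deviations of same-numbered arrays correlated at -0.150 to 0.254 over the 5 planned comparisons. All 3 values were positive at 2 h against withdrawal (0.046, 0.192 and 0.254) and negative at 8 h against maintained (-0.060, -0.011 and -0.045). With 3 arrays a group these values cannot show whether the numbers pair arrays. Alternatives were constants of 4 and 64, other dimness filters, quantile normalization, a common median, no variance trend, only the groups compared, array weights, a replicate block, other uses of the probe sets, and leaving out each array. The 5 motifs of the text were searched in RefSeq promoters (GRCm38.p6).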

Additional observations from a re-analysis of the deposited data

Results flagged for a closer look

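The Neurog3 probe set that was too dim to represent the gene nevertheless carried signal above its level in maintained cultures. Its mean was 6.07 there, against 46.4 after withdrawal, 58.0 at 2 h and 38.3 at 8 h of replacement. The withdrawal, 2 h and 8 h arrays all lay above the maintained arrays, and the 4 h arrays overlapped them. No test was made, since the probe set did not pass the filter.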

How the results depend on the processing

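Neurog3, Sohlh1, Lmo1 and Upp1 kept their withdrawal calls in all 12 other settings and in all 6 fits with 1 array left out, and Dmrt1 lost its call in 2 of the 12. On withdrawal 4 or 5 of the 8 genes were called throughout. At 4 h against withdrawal 0 were called with no filter, no variance trend, only the groups compared or every probe set tested, 2 with array weights, and 0 to 1 with 1 array left out. At 8 h against withdrawal 2 were called with no variance trend or only the groups compared, 4 with array weights, and 0 to 2 with 1 array left out. At 8 h against maintained 0 were called with a constant of 64, no filter, quantile normalization, a common median, no variance trend or every probe set tested, 2 with only the groups compared, 4 with array weights, and 0 to 1 with 1 array left out. With the replicate block 0 were called at 8 h against maintained (Sohlh1 1.00, adjusted p = 0.0633), and 1121 rather than 1052 of all genes on withdrawal; 10 of 30 arrays correlated best with their own number.

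Some small differences changed sign. Sohlh2 on withdrawal stood at 0.073 with quantile normalization. Neurog3 at 2 h against withdrawal stood at 0.0014 with a constant of 64, 0.013 with quantile normalization, 0.073 with a common median, 0.18 with array weights and -0.18 to 0.21 with 1 array left out, and Lmo1 at -0.22 to 0.059. Dmrt1 at 4 h against withdrawal stood at -0.12 with quantile normalization, -0.033 with array weights and -0.027 to 0.088 with 1 array left out, and at 8 h against maintained at -0.041 with a common median. The cause was not tested. Stra8 was not tested with the dimmest 60% left out, and dim signal limits it and the second Neurog3 probe set.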
